A study of Mus musculus with 6 samples.

Results

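Described here are 38 genes of the hypoxia response and of glycolysis in mouse neural progenitor cells, followed through auxin-induced loss of the protein SPEN. They are 38 of the 53801 genes counted and were selected on a readout of these libraries. The list joins known targets and regulators of the hypoxia-inducible factors (HIF) with glycolytic genes, and it was chosen because known HIF targets had moved in opposite directions in the 2 clones of the study. The changes within each clone that chose the list are therefore given as a description, with no test. The cells were 2 subclones, CL30 and CL31, called clone 30 and clone 31 here. They were derived from embryonic stem cells of BL/6J x CAST-EiJ origin in which SPEN, a nuclear RNA-binding repressor, bears a degron that auxin triggers. The degron is shared by all groups, so untreated cells carry it too. Each clone gave 1 library untreated, 1 after 24 h and 1 after 48 h in 500 uM auxin, which makes 6 libraries and 2 per group. The growth factors EGF and FGF and the gelatin coating were the same for all 6. Auxin was not given to cells without the degron in the libraries analysed here, so loss of SPEN and exposure to auxin cannot be told apart.

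HIF is a pair of an alpha subunit, made from Hif1a or Epas1 among the genes of the list, and a constant beta subunit. In oxygen, EGLN prolyl hydroxylases mark the alpha subunit for destruction, so HIF is set mainly through the protein and less through its mRNA. When the alpha subunit is stable, the pair binds a short core sequence near target genes. Targets include glucose and lactate transporters, most glycolytic enzymes, angiogenic factors, mitophagy genes and the hydroxylases Egln1 and Egln3 themselves, which form a feedback loop. Neural progenitors rely strongly on glycolysis and lower it when they differentiate.

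Libraries held between 24603816 and 43008978 counted read pairs. Values are CPM, the read pairs of a gene relative to the library's total, scaled between libraries by the trimmed mean of M-values (TMM). Within each clone a change is a log2 ratio of 2 libraries with a prior count of 2. The messenger RNA of Spen itself stood at 92.4, 174 and 199.7 CPM in clone 30 and at 116, 218 and 259 CPM in clone 31, untreated, at 24 h and at 48 h. It does not report on the protein that auxin removes. Progenitor markers were present in every library, with a summed level of 3464 to 4909 CPM over 8 genes. Of the 5 pluripotency markers, Pou5f1, Zfp42 and Dppa5a had no count in any library. Nanog and Esrrb had counts, and the summed level of the 5 was 4.86 to 7.49 CPM. Between untreated and 48 h libraries the summed level of 6 astrocyte markers went from 1327 to 1479 CPM in clone 30 and from 872 to 1558 CPM in clone 31. That of 6 oligodendrocyte lineage markers went from 3192 to 3403 CPM and from 2703 to 2827 CPM. In bulk RNA, more cells of a type and more RNA per cell cannot be told apart, and the part of cell makeup in the results below was not tested.

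The members were lower after auxin in clone 30 and higher at 48 h in clone 31. In clone 30, the 37 members with enough counts had a median log2 change of -0.53 at 24 h and -0.72 at 48 h. In clone 31 the medians were -0.13 and 0.71. Over all 16007 genes tested the median lay between 0.00247 and 0.0148 in those 4 comparisons. Car9, a carbonic anhydrase that marks strong hypoxia in many cells, is the member left out of the fits, with 0 counts in 4 libraries and 1 in each of the other two.

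At 24 h, 14 of 37 members were at least 1.5-fold lower in clone 30, beside 6.88% of all genes tested. In clone 31 it was 1 member, Pdk1, beside 4.76%. At 48 h, 24 members were at least 1.5-fold lower in clone 30, beside 7.52% of genes, and none was 1.5-fold higher. In clone 31, 21 were at least 1.5-fold higher, beside 19.1%, and 3 were at least 1.5-fold lower (Adm, Pfkfb3 and Pfkp), beside 15.5%. Both together, 1.5-fold lower in clone 30 and 1.5-fold higher in clone 31, held for 14 members, beside 0.762% of genes. With no minimum size, 28 members were below 0 in clone 30 and above 0 in clone 31, beside 14.4%. No member went the opposite way. Counted at 2-fold, 9 members were lower in clone 30 at 48 h, beside 2.18% of genes, and 4 were lower in clone 30 and higher in clone 31, beside 0.075%. The list was chosen for this contrast, so these shares describe it and support nothing further.

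**Figure D1:**
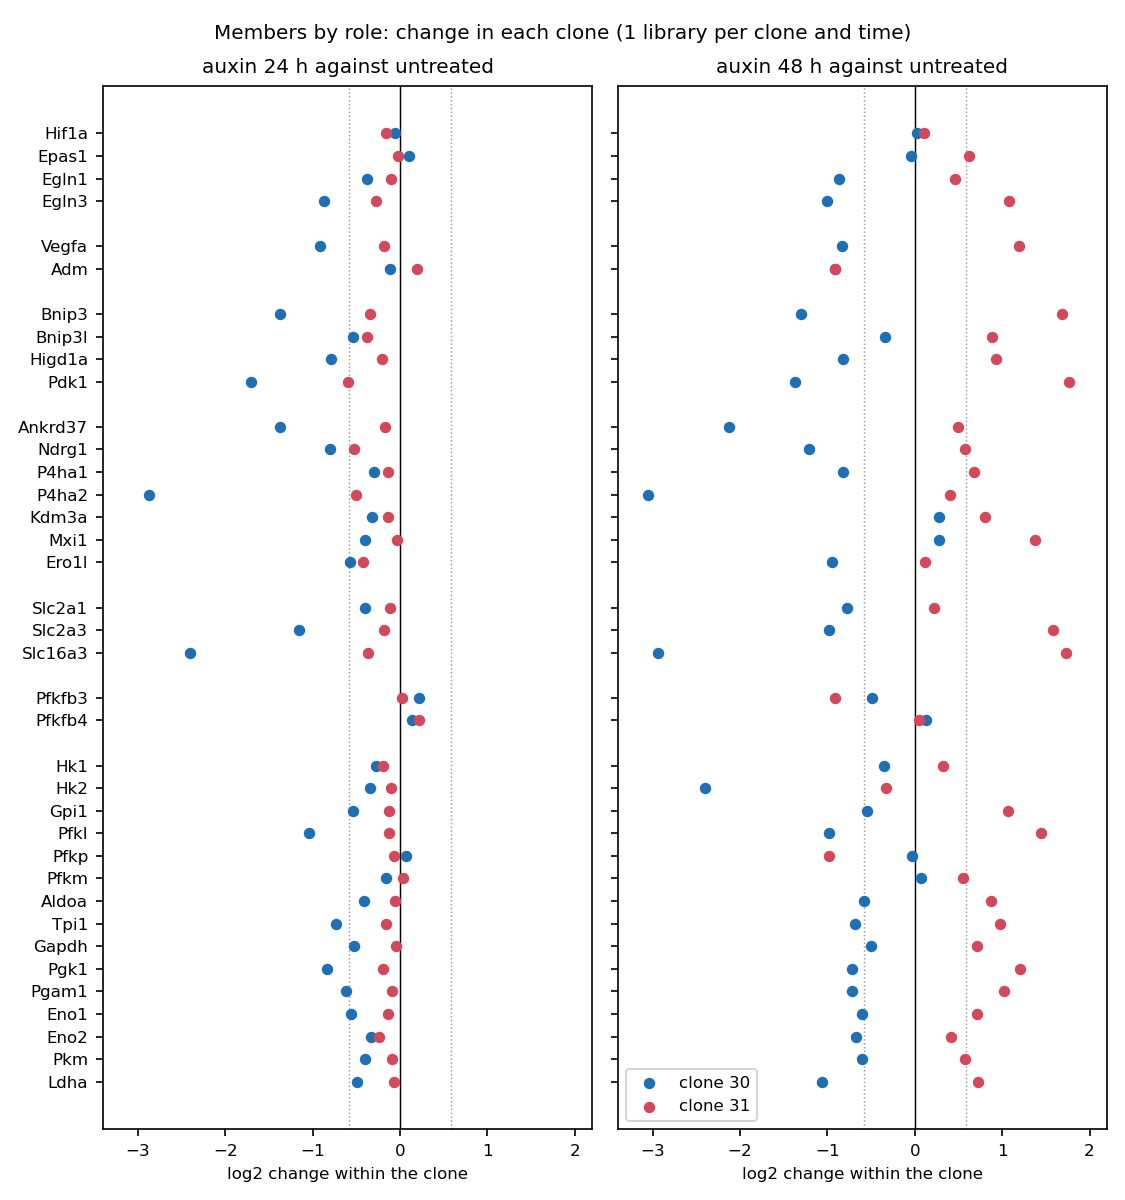
Log2 change of each tested member within clone 30 (blue) and clone 31 (red) at 24 h (left) and 48 h (right) against the untreated library of the same clone. Each point is 1 library against 1 library, and dotted lines mark 1.5-fold. At 24 h most points of both clones lie at or below 0, and at 48 h most blue points lie below 0 and most red points above it.

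Seen by library, the 48 h library of clone 31 held the highest value of 32 of the 37 members, beside 26.2% of all genes. The lowest value lay in an auxin library of clone 30 for 31 members, beside 32.7%, and both held for 29, beside 11.9%. Before auxin the 2 clones were closer: 7 members were at least 1.5-fold higher in clone 31 than in clone 30, beside 7.74% of genes. At 24 h there were 14, beside 7.72%, and at 48 h 30, beside 9.8%. The median difference between the clones was 0.09 untreated, 0.48 at 24 h and 1.56 at 48 h on the log2 scale.

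**Figure D2:**
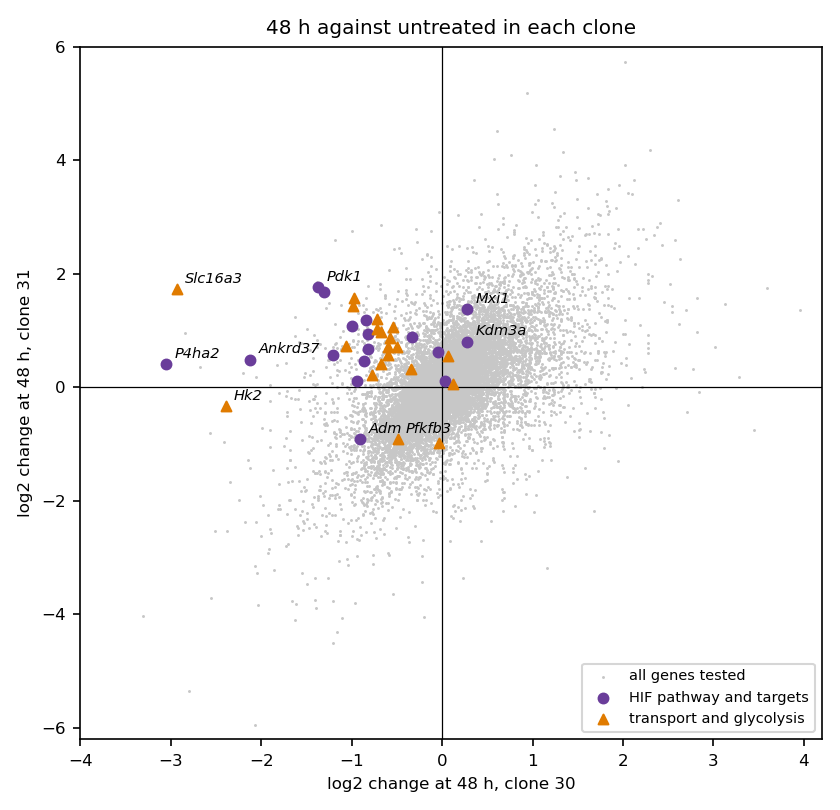
Log2 change at 48 h against untreated in clone 30 (horizontal) and in clone 31 (vertical). Small grey points are all 16007 genes tested, and purple circles and orange triangles are the 37 tested members. Grey points run from the lower left to the upper right, and 28 members lie in the upper left part, with Slc16a3 showing the widest gap between the clones.

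Promoters are shown for the 4 members with the widest range over the libraries among those at a mean of at least 5 CPM, because their levels spread most and each holds the core letters that HIF is known to bind. RefSeq's table of promoters on GRCm38.p6 held at least 1 window for 34 of 38 members. Epas1, Bnip3l, Ndrg1 and Slc2a3 had none, and Ero1l is listed there as Ero1a. The 250 bases before the start were searched for ACGTG and GCGTG on both strands. CACGTG counts on both strands, so it gives 2 matches. Each sequence below runs 5′ to 3′ on the strand of the gene, and capitals mark the matches, which read CACGT or CACGC where the other strand holds the motif.
Adm, chr7:110627407-110627656, plus strand: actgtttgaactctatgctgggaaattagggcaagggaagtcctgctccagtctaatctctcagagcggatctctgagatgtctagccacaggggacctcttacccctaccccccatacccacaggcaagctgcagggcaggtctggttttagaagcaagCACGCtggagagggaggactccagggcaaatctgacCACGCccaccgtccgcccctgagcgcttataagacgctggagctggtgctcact
Slc16a3, chr11:120948817-120949066, plus strand: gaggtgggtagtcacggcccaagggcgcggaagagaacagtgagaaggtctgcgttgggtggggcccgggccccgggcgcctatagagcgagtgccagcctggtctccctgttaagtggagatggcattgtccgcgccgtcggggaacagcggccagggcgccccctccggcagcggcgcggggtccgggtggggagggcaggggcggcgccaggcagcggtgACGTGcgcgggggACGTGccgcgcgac
Hk2, chr6:82774455-82774704, minus strand: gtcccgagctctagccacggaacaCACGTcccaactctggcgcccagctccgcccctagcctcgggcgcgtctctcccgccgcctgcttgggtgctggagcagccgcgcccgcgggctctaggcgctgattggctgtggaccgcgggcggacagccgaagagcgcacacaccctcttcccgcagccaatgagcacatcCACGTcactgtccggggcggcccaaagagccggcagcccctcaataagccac
Pdk1, chr2:71872974-71873223, plus strand, 1 of 2 starts: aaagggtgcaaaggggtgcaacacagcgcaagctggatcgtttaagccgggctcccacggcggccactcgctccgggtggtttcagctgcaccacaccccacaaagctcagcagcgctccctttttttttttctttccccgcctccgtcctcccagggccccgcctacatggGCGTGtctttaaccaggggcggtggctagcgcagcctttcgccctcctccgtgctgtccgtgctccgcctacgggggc

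In Slc16a3 the matches began 27 and 14 bases before the start, the closest of the 4 genes. Those of Adm began 90 and 54 bases before it, those of Hk2 226 and 52, and that of Pdk1 78. Of the 34 members with a window, 31 (91.2%) held at least 1 match in some window, against 6809 of 11202 tested genes with a window (60.8%). By window, 39 of 51 held a match (76.5%), against 7831 of 14347 windows of tested genes (54.6%) and 38.6% of all 32851 windows in the table. Gpi1, Tpi1 and Eno2 held none in these windows. The list joins known HIF targets with glycolytic genes, so a high share was built in by that choice and no test was made. Members also had more windows per gene than tested genes, which raises the share counted by gene. A match is a run of letters, and binding was not measured.

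Hif1a, an alpha subunit of HIF, stood at 266, 256 and 271 CPM in clone 30 (untreated, 24 h and 48 h, the order used throughout) and at 282, 252 and 304 CPM in clone 31. Epas1, the second alpha subunit, stood at 34.9, 37.5 and 33.8 CPM in clone 30 and at 25.2, 24.8 and 38.8 CPM in clone 31. Its log2 change at 48 h was 0.62 in clone 31, past 1.5-fold, and -0.05 in clone 30. Per kb of exon, Hif1a averaged 46.1 CPM per kb over the 6 libraries and Epas1 6.12. Hif1a accounted for 86.0% to 91.0% of the 2 together. Egln1, the main oxygen sensor of the pathway, stood at 116, 89.0 and 63.4 CPM in clone 30 and at 141, 131 and 193 CPM in clone 31. Egln3, its strongly HIF-inducible relative, stood at 41.6, 22.8 and 20.8 CPM in clone 30 and at 62.9, 51.9 and 133 CPM in clone 31. For both genes every library of clone 31 lay above every library of clone 30, beside 11.6% of all genes.

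Of the secreted factors, Vegfa followed the pattern and Adm did not. Vegfa, the main angiogenic growth factor, stood at 134, 71.1 and 74.9 CPM in clone 30 and at 168, 147 and 385 CPM in clone 31. Adm, the vasodilator peptide adrenomedullin, stood at 18.1, 16.6 and 9.60 CPM in clone 30 and at 0.550, 0.640 and 0.264 CPM in clone 31. In clone 31 these are 22, 27 and 7 read pairs. Adm was thus nearly absent from clone 31 before any auxin, and at 48 h it was lower in both clones.

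The mitochondrial genes showed some of the widest swings. Bnip3, a receptor that targets mitochondria for autophagy, stood at 96.5, 37.3 and 39.1 CPM in clone 30 and at 80.6, 63.3 and 260.0 CPM in clone 31. Its relative Bnip3l stood at 175, 120.3 and 138 CPM in clone 30 and at 176, 135 and 323 CPM in clone 31. The clones were level before auxin in Bnip3l, and the 48 h library of clone 31 stood above the other 5 in both genes. Pdk1 is the kinase that keeps pyruvate from being oxidized by blocking pyruvate dehydrogenase. It stood at 78.5, 24.1 and 30.2 CPM in clone 30 and at 84.2, 55.8 and 286 CPM in clone 31. Higd1a, a small protein of the inner mitochondrial membrane, stood at 94.6, 54.9 and 53.6 CPM in clone 30 and at 82.4, 71.1 and 158 CPM in clone 31. All 4 were lower in both 24 h libraries than in both untreated ones, beside 12.4% of all genes. At 48 h all 4 were below 0 in clone 30 and above 0 in clone 31, beside 14.4% of genes. Bnip3l, at -0.34 in clone 30, fell short of 1.5-fold there.

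Other HIF targets of the list divided into 3 kinds. Ndrg1, a stress-responsive gene, stood at 14.5, 8.30 and 6.27 CPM in clone 30 and at 27.6, 19.1 and 41.2 CPM in clone 31. P4ha1, a subunit of the enzyme that hydroxylates collagen, stood at 162, 133 and 92.1 CPM in clone 30 and at 173, 158 and 277 CPM in clone 31. Ero1l, which passes electrons to disulfide bonds in the endoplasmic reticulum, stood at 80.3, 53.9 and 41.7 CPM in clone 30 and at 149.9, 112 and 163 CPM in clone 31. These followed the split, although Ero1l at 48 h in clone 31 was only 0.12 above untreated on the log2 scale. A pair of targets had few read pairs in the auxin libraries of clone 30. Ankrd37, an ankyrin-repeat gene induced by HIF, stood at 2.17, 0.800 and 0.453 CPM in clone 30 and at 7.20, 6.40 and 10.1 CPM in clone 31. P4ha2, the second collagen hydroxylase subunit, stood at 2.57, 0.300 and 0.259 CPM in clone 30, from 64, 12 and 8 read pairs, and at 4.53, 3.18 and 6.03 CPM in clone 31. Kdm3a and Mxi1 formed the remaining kind, higher at 48 h in both clones. Kdm3a, a histone H3 lysine 9 demethylase, stood at 138, 110.1 and 167 CPM in clone 30 and at 165, 150.3 and 289 CPM in clone 31. Mxi1, an antagonist of MYC, stood at 38.5, 29.0 and 46.7 CPM in clone 30 and at 32.8, 32.1 and 85.1 CPM in clone 31. For both, the 48 h libraries stood above the untreated ones without overlap, as 25.7% of all genes did. In clone 30 the rise was 0.27 for Kdm3a and 0.28 for Mxi1 on the log2 scale, short of 1.5-fold.

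**Figure D3:**
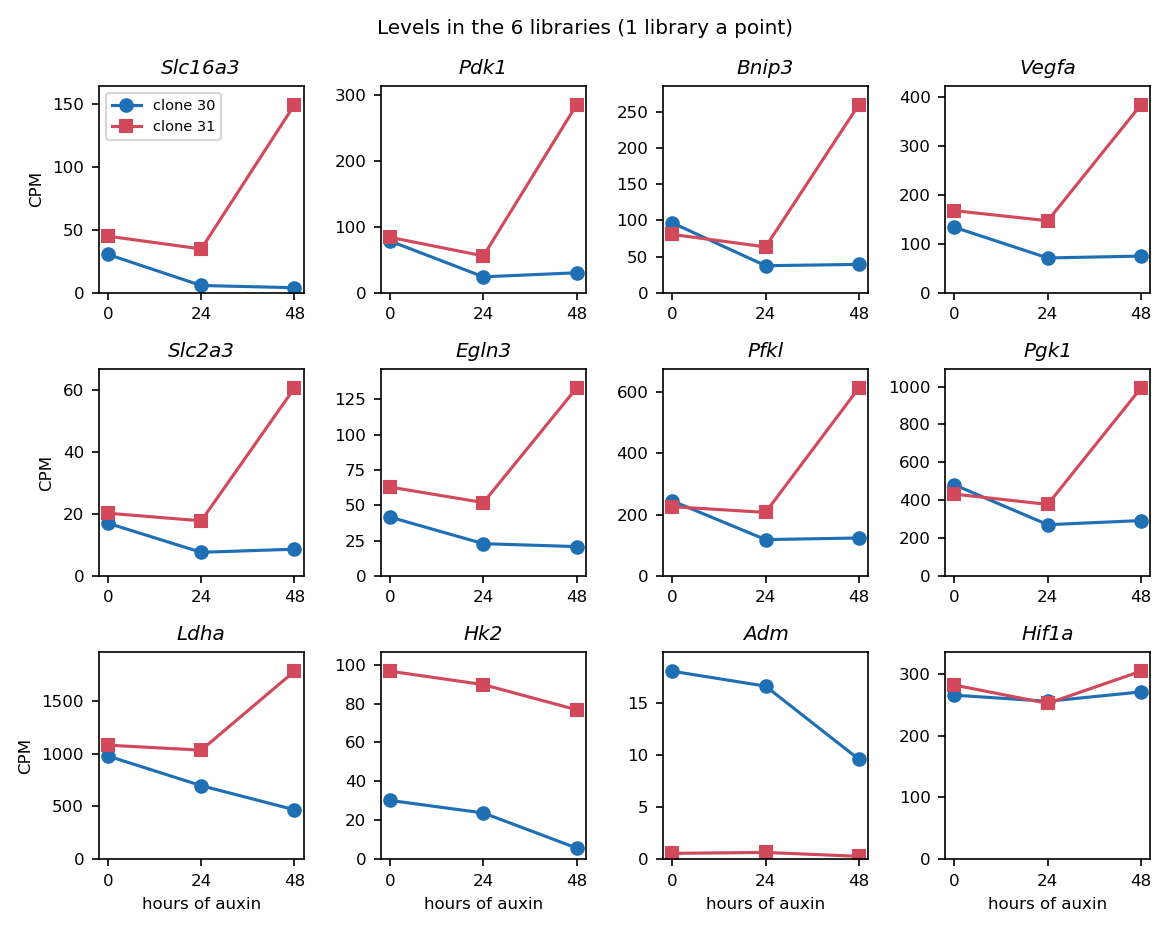
CPM (vertical, from 0, with its own scale in each panel) of 12 members against hours of auxin. Blue circles are the 3 libraries of clone 30 and red squares the 3 of clone 31, joined within a clone. In the first 9 panels clone 31 is highest at 48 h and clone 30 stays at or below its untreated level, while Hk2, Adm and Hif1a depart from that shape.

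Slc16a3, the MCT4 carrier that exports lactate, had the widest split of all members. It stood at 30.3, 5.68 and 3.91 CPM in clone 30 and at 44.8, 34.7 and 149 CPM in clone 31. Its log2 change at 48 h was -2.94 in clone 30 and 1.73 in clone 31, and its highest library was 38.1 times its lowest. Slc2a1 (GLUT1), the basal glucose importer, stood at 88.8, 67.0 and 51.7 CPM in clone 30 and at 128, 118 and 149 CPM in clone 31. Slc2a3 (GLUT3), the high-affinity importer typical of neurons, stood at 17.0, 7.60 and 8.60 CPM in clone 30 and at 20.2, 17.8 and 60.6 CPM in clone 31. Slc2a1 was much the more abundant per kb of exon, 28.7 against 3.03 CPM per kb. Slc2a3 made up 7.10% of the pair in untreated clone 31 and 16.5% at 48 h, and 8.47% and 7.45% in clone 30.

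The PFKFB enzymes set the level of a regulatory fructose bisphosphate that switches phosphofructokinase on, distinct from the one that Aldoa cleaves. Neither Pfkfb3 nor Pfkfb4 followed the split. Pfkfb3 lay between 76.6 and 108 CPM in the untreated and 24 h libraries, and at 54.4 (clone 30) and 56.6 CPM (clone 31) at 48 h. Both 48 h libraries were thus below all others. Pfkfb4 ranged from 14.6 to 22.1 CPM.

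Of the 15 enzymes of glycolysis, 12 were below 0 in clone 30 and above 0 in clone 31 at 48 h. Their summed level was 9255, 6494 and 6039 CPM in clone 30 and 8777, 8207 and 15430 CPM in clone 31. The 48 h library of clone 31 thus held more glycolytic mRNA than any other, and the clones were close before auxin. Averaged over the libraries, Pkm and Aldoa were the most abundant per kb of exon, at 358 and 355 CPM per kb. Ldha (304), Gapdh (255), Tpi1 (224), Pgk1 (211), Gpi1 (189.9) and Eno1 (174) followed. Pgam1 (99.2) and Pfkm (73.3) came next.

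At the entry of the pathway the isozymes behaved unlike each other. Hk1, the constitutive hexokinase, ranged from 125 to 199 CPM. Hk2, the inducible hexokinase bound to mitochondria, stood at 30.2, 23.7 and 5.69 CPM in clone 30 and at 96.6, 89.8 and 76.8 CPM in clone 31. Hk2 was lower at 48 h in both clones, with log2 changes of -2.40 and -0.33. As a share of both hexokinases per kb, Hk2 went from 21.3% to 6.11% in clone 30 and from 46.4% to 35.5% in clone 31. Gpi1, which makes fructose 6-phosphate, stood at 1311, 899 and 899.7 CPM in clone 30 and at 1056, 965 and 2221 CPM in clone 31.

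At the committed step, Pfkl, the liver-type phosphofructokinase, stood at 244, 118 and 124 CPM in clone 30 and at 226, 207 and 613 CPM in clone 31. Pfkm, the muscle type, ranged from 202 to 295 CPM. Pfkp, the platelet type, stood at 1.89, 1.98 and 1.84 CPM in clone 30 and at 1.33, 1.26 and 0.640 CPM in clone 31. Only Pfkl of the 3 followed the split. Its share of the 3 subunits per kb went from 32.0% to 18.5% in clone 30 and from 35.9% to 51.0% in clone 31.

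**Figure D4:**
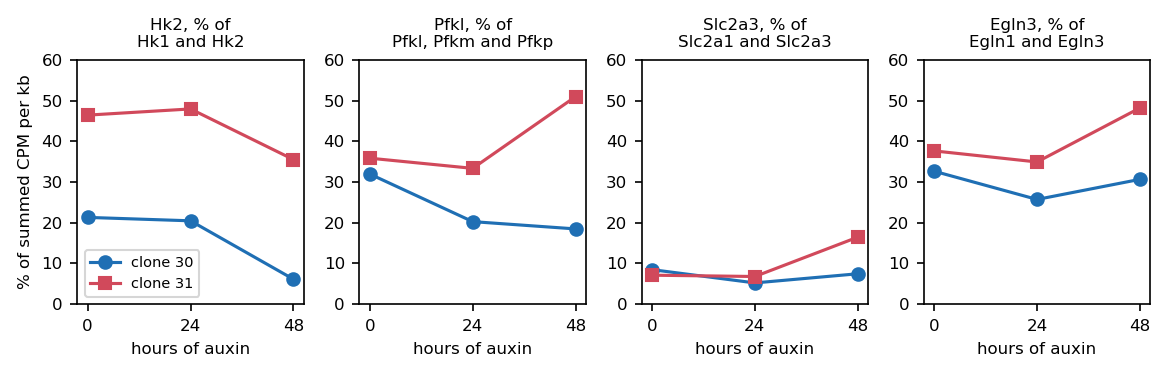
Share of 1 isozyme in the summed CPM per kb of exon of its family (vertical, in percent) against hours of auxin, for Hk2, Pfkl, Slc2a3 and Egln3. Blue circles are clone 30 and red squares clone 31, 1 library a point. Hk2 lost share at 48 h in both clones, and the shares of Pfkl, Slc2a3 and Egln3 were highest in the 48 h library of clone 31.

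Further down the pathway, the enzymes showed similar profiles. Aldoa, which splits fructose bisphosphate, stood at 984, 741 and 659 CPM in clone 30 and at 1007, 970.0 and 1839 CPM in clone 31. Tpi1, which interconverts the triose phosphates, stood at 605, 363 and 377 CPM in clone 30 and at 607, 543 and 1196 CPM in clone 31. In both the untreated clones were nearly level and the 48 h library of clone 31 was the highest. Gapdh, the dehydrogenase that makes NADH, stood at 1133, 784 and 800.2 CPM in clone 30 and at 999, 964 and 1640.1 CPM in clone 31. Gapdh is often used as a reference gene, and its highest library here was 2.09 times its lowest. Pgk1, the first enzyme to return ATP, stood at 481, 270.3 and 292 CPM in clone 30 and at 432, 377 and 992 CPM in clone 31. Pgk1 is the one member on the X chromosome (GRCm38 X, 106187100 to 106203699). Pgam1, a mutase, stood at 190.3, 124 and 116 CPM in clone 30 and at 166, 156 and 338 CPM in clone 31. Eno1, the ubiquitous enolase, stood at 927, 629 and 613 CPM in clone 30 and at 966, 881 and 1588 CPM in clone 31. Eno1, Gapdh and other enzymes with near-identical copies in the genome are uncertain, since read pairs with several matches were not counted.

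Eno2, the neuronal enolase, was scarce and differed by clone from the start, at 5.14, 4.08 and 3.20 CPM in clone 30 and 20.4, 17.3 and 27.1 CPM in clone 31. Pkm, pyruvate kinase, stood at 1944, 1474 and 1282 CPM in clone 30 and at 1757, 1655 and 2621 CPM in clone 31. Ldha, which turns pyruvate into lactate and is the partner of the exporter Slc16a3, stood at 978, 697 and 468 CPM in clone 30 and at 1082, 1034 and 1784 CPM in clone 31. Among the abundant enzymes, Ldha had the lowest 48 h value relative to untreated in clone 30, with a log2 change of -1.06.

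Treatment groups were then compared over both clones with edgeR's quasi-likelihood test, adjusted over all genes by the Benjamini-Hochberg method. Since the list was chosen in view of the same libraries, calls among its members are not independent evidence. On treatment group alone no member passed at 24 h, at 48 h or at 48 h against 24 h, and 0% of all genes did. At an unadjusted p under 0.05, edgeR gave 0, 2 and 3 members in these comparisons, and 240, 3311 and 3997 genes of the whole table. DESeq2 called 0, 1 and 2 members, beside 0.0375%, 10.3% and 15.6% of all genes. In this fit the 2 clones of a group count as replicates, and at 48 h they lay at least 1.5-fold apart from untreated in opposite directions for 14 members.

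With the clone as a replicate block, 0% of genes and no member passed at 24 h, and 3 members passed at 48 h. These were members whose 2 clones had changed in 1 direction. Pfkfb3 fell by 0.70 ± 0.12 on the log2 scale (SE, n = 2 clones, edgeR adjusted p = 0.0264). Adm fell by 0.92 ± 0.20 (edgeR adjusted p = 0.0349), with nearly all of its counts in clone 30. Kdm3a rose by 0.54 ± 0.14 (edgeR adjusted p = 0.04997), just inside the threshold of 0.05. Mxi1 was higher by 0.84 ± 0.25 (edgeR adjusted p = 0.0698) and did not pass. That is 1 member higher and 2 lower, beside 8.35% and 9.08% of all genes. Between 24 h and 48 h, Kdm3a (0.78 ± 0.14) and Mxi1 (1.08 ± 0.25) rose and Adm (-0.89 ± 0.20) and Pfkfb3 (-0.82 ± 0.12) fell, beside 12.3% and 13.9% of genes. Those shares are 1961 genes higher and 2224 lower, and upper-quartile scaling turned them to 2549 and 1726, with the members at 2 and 2. Their edgeR adjusted p-values were 0.0187, 0.0315, 0.0274 and 0.0163.

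The blocked counts turned on which 48 h library was kept. With the 48 h library of clone 30 left out, 25 members passed at 48 h, 23 higher and 2 lower, beside 20.9% and 18.5% of genes. With that of clone 31 left out, 17 passed, none higher and 17 lower, beside 8.91% and 10.6%. Either fit rests on the 48 h change of 1 clone, which is what chose the list. Adm and Kdm3a each lost the call in 1 of these fits, with edgeR adjusted p of 0.0785 without clone 30 at 48 h for Adm and 0.0674 without clone 31 at 48 h for Kdm3a. Pfkfb3 passed in both. Leaving out an untreated library of clone 31 or either 24 h library ended all 3 calls at 48 h, and leaving out either 24 h library ended all 4 between 24 h and 48 h. Leaving out the untreated library of clone 30 ended that of Adm. A test of the difference between the clones' responses needs replicates within a clone, so the split itself was not tested.

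At 24 h, 31 of 37 members were below 0 in both clones, beside 29.5% of all genes. Epas1 and Pfkp were above 0 in clone 30 only, Adm and Pfkm in clone 31 only, and Pfkfb3 and Pfkfb4 in both. For 17 members both 24 h libraries lay below both untreated libraries, beside 12.4% of genes, and no member lay above. They were Hif1a, Bnip3, Bnip3l, Higd1a, Pdk1, P4ha1, Mxi1, Hk1 and 9 further enzymes of glycolysis. At 48 h, 3 members lay above without overlap (Kdm3a, Mxi1 and Pfkm) and 1 below (Pfkfb3), beside 25.7% and 25.7% of genes. The median of the members at 24 h in the blocked fit was -0.32, and it was 0.14 when untreated clone 30 was left out, -0.77 when untreated clone 31 was, and -0.57 when the 24 h library of clone 30 was.

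The clones also differed on average over the 3 times, in libraries that include those that chose the list. In edgeR's fit with group and clone as terms, 8 of 37 members were higher in clone 31, beside 7.58% of 15492 genes, and 1 was lower, beside 8.58%. Ankrd37 was higher by 2.90 ± 0.47 on the log2 scale (edgeR adjusted p = 0.0148), Hk2 by 2.37 ± 0.40 (edgeR adjusted p = 0.0163) and Eno2 by 2.37 ± 0.24 (edgeR adjusted p = 0.00407). Ndrg1, Ero1l, Slc2a1, Kdm3a and Pfkfb4 were higher by 0.37 to 1.59. Adm was lower, with a log2 difference of -4.92 ± 0.17 (edgeR adjusted p = 0.000417). For 14 members all 3 libraries of clone 31 lay above all 3 of clone 30, beside 11.6% of genes, and for Adm and Pfkp they lay below, beside 11.6%. The count of 9 calls became 2 when either 24 h library was left out, and 14 or 15 when the 48 h library of clone 30 or clone 31 was.

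Other genes of these pathways showed where the split was shared. Of 25 further HIF targets, 24 were tested. Their median log2 change at 48 h was -0.29 in clone 30 and 0.53 in clone 31. In clone 30, 7 were at least 1.5-fold lower, beside 7.52% of all genes. In clone 31, 11 were at least 1.5-fold higher, beside 19.1%. Ak4, Fam162a, Lox and Loxl2, picked out after their values were seen, passed both sizes in opposite directions, beside 0.762% of all genes. Lox and Loxl2, which cross-link collagen, reached 2.75 and 2.86 in clone 31 and -0.99 and -0.68 in clone 30. In the blocked edgeR fit at 48 h, Wsb1 rose by 0.76 ± 0.15 (edgeR adjusted p = 0.0302) and Hmox1 fell by 0.52 ± 0.13 (edgeR adjusted p = 0.0497). Stc2 (-0.68 ± 0.18) and Rora (0.38 ± 0.11) did not pass. That is 1 gene higher and 1 lower among 24, beside 8.35% and 9.08% of all genes.

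HIF machinery beyond the members had medians of 0.14 and 0.11 at 48 h in clones 30 and 31. Hif3a, a further HIF alpha gene picked out after its values were seen, had the widest gap among these genes, at 0.45 and 1.73. In the blocked edgeR fit, Eloc and Cul2, parts of the ubiquitin ligase that removes the alpha subunit, fell by 0.53 ± 0.08 and 0.35 ± 0.08. The ligase's substrate receptor Vhl rose by 0.47 ± 0.12. Among 12 genes these 3 calls are 1 higher and 2 lower, beside 8.35% and 9.08% of all genes. The coactivator Ep300 (0.31 ± 0.09) did not pass. Among 12 tested glycolysis genes outside the list, 4 rose at 48 h in that fit, beside 8.35% of all genes, and none fell, beside 9.08%. They were Pfkfb2 (0.59 ± 0.13), Aldoc (0.97 ± 0.21), Eno3 (0.82 ± 0.18) and Ldhb (0.57 ± 0.14). Aldoc and Ldhb are the brain-type aldolase and the heart-type lactate dehydrogenase subunit. At 48 h Aldoc was at 0.55 in clone 30 and 1.41 in clone 31, and Ldhb at 0.29 and 0.85. These genes are named for the smallest p of the blocked fit, which favours genes whose clones agree. Pgm1 of the same list, picked out after its values were seen, split by clone, at -0.29 and 1.29.

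Among 13 genes of pyruvate import into mitochondria and of its use there, 2 rose and 1 fell in the blocked fit at 48 h. The shares of all genes were 8.35% higher and 9.08% lower. Pcx, pyruvate carboxylase, rose by 1.03 ± 0.12 and Pdk2, a kinase like Pdk1, by 0.91 ± 0.20. Dlat, the core of pyruvate dehydrogenase, fell by 0.48 ± 0.09, and Pdk4 (1.22 ± 0.46) did not pass. Of the pentose phosphate pathway, 1 of 7 genes passed, Rpia, which fell by 0.87 ± 0.16, beside 9.08% of all genes lower. The respiratory chain had medians of -0.17 and 0.12 at 48 h in clones 30 and 31 and 1 call among 19 tested genes. That was cytochrome c, Cycs, which fell by 0.58 ± 0.11, again beside 9.08% of all genes lower.

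**Figure D5:**
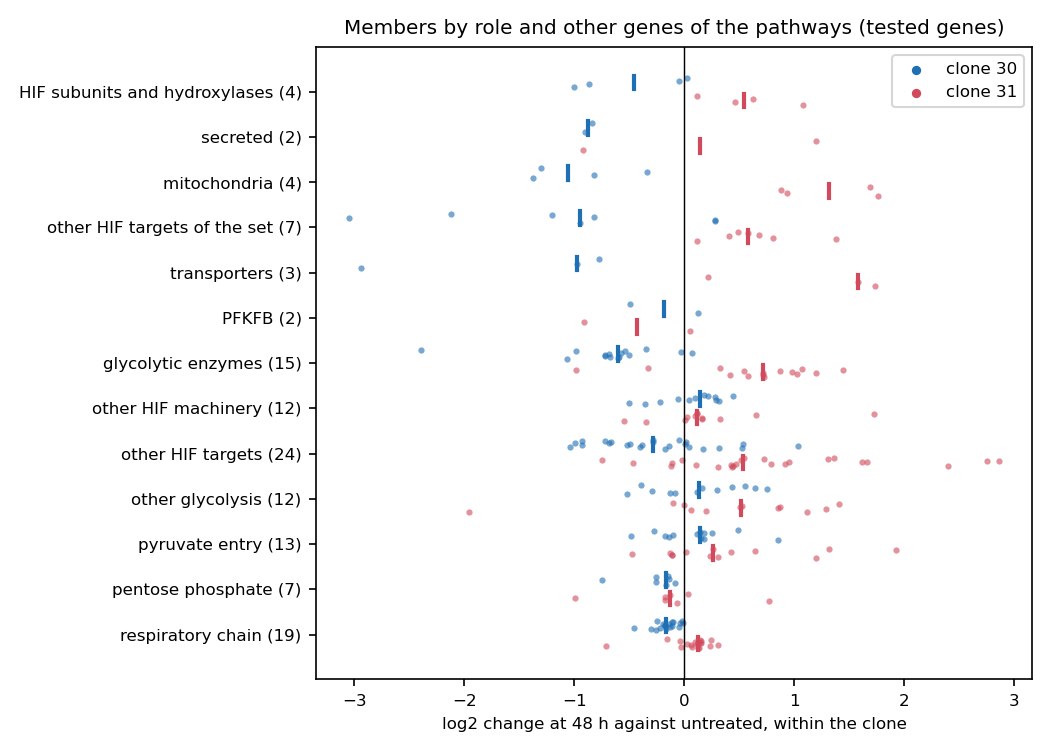
Log2 change at 48 h against untreated (horizontal) for the members by role and for 6 other lists of the same pathways, with the number of tested genes in brackets. Blue points are clone 30 and red points clone 31, and bars mark medians. The medians of the clones lie apart on either side of 0 for most roles of the members and for the further HIF targets, and lie close together for the HIF machinery and the pentose phosphate genes.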

How the data were processed

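Total RNA went into TruSeq libraries read as pairs of 100 bases, according to the labels' protocols. Each sample's file gives raw, unnormalized counts, made by the authors with featureCounts 1.6.1 per the file headers: read pairs in exons, summed by gene, reverse strand, Ensembl release 92 annotation of mm10. Paths in those headers point to STAR, merged and duplicate-free alignments, and no option to count pairs with several matches is set. Removal of duplicates can compress the range of abundant genes such as Pkm or Gapdh. The aligner's settings are not given in the sources used here. The exon length deposited with the counts, per the file headers, was used for CPM per kb.

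Identifiers of 53620 of 53801 genes matched a symbol and 181 did not. Aldoa has 2 identifiers, and the one with 99.7% of its counts was used. The fits kept 16007 genes (filterByExpr), 15492 for the clone comparison. edgeR 4.0.16 (quasi-likelihood, robust, TMM) was fitted on all genes and 6 libraries under R 4.3.3, with Benjamini-Hochberg adjustment and a threshold of 0.05. DESeq2 1.42.0 and limma 3.58.1 (voom), other scaling, filters and prior counts, and each library left out in turn were alternatives. The fit and its blocked form were run on simulated data in which both clones changed by the same folds at 48 h. Clones that respond in opposite directions were not simulated. Clone numbers pair the libraries because each is 1 subclone, per the titles. Deviations from group means correlated at 0.803, 0.58 and 0.707 between the groups, and the biological coefficient of variation was 0.271 on group alone and 0.121 with the clone as a block. On group alone the p-values measure the spread between the 2 clones of a group. With the clone as a term, they measure how far the 2 clones disagree in their changes between the groups.

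The members, the other lists and the tests were chosen with earlier results of these data known. All 38 members are named. A member has its value in every library where its mean was at least 5 CPM and its highest library at least 2 times its lowest, with Hif1a, Epas1 and scarce members with at least 10 counts in a library added. Of each other list, up to 4 genes with the smallest unadjusted p at 48 h in the blocked fit are named. Genes picked out after their values were seen are marked so in the text.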

Additional observations from a re-analysis of the deposited data

Results flagged for a closer look

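In 14 members the single 48 h library of clone 30 lay at least 1.5-fold below its untreated library and that of clone 31 at least 1.5-fold above, so the clones moved in opposite directions. The difference between the clones was not tested, since each clone has 1 library per time. The change in clone 31 minus the change in clone 30, on the log2 scale, was 4.67 for Slc16a3, 3.14 for Pdk1 and 2.99 for Bnip3. For Slc2a3 it was 2.56, for Pfkl 2.43, for Egln3 2.08 and for Vegfa 2.03. Pgk1 had 1.92, Ldha 1.78, Higd1a 1.75 and Pgam1 1.74. The smallest were Tpi1 with 1.66, P4ha1 with 1.496 and Eno1 with 1.31. Over all genes tested the median of this difference was -0.00335. The list was chosen for this pattern.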

How the results depend on the processing

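Other scaling and prior counts kept every within-clone count of members within 1.5 times. In parentheses stands the share of all genes called, or past the fold, in the same comparison and setting. Counted at 2-fold, 7 members were lower at 24 h in clone 30 (2.32%) and 0 in clone 31 (1.41%). At 48 h, 9 were lower in clone 30 (2.18%), 11 higher (8.91%) and 0 lower (6.47%) in clone 31, and 4 were opposed (0.075%). On treatment group alone, with 0 calls in edgeR, DESeq2 called 1 member at 48 h (10.3%) and 2 at 48 h against 24 h (15.6%). With no filter beyond 1 count, edgeR called 1 at 48 h against 24 h (3.11%) and 3 between the clones (2938 of 26823 genes). With the replicate block, edgeR called 3 members at 48 h (17.4%) and 4 at 48 h against 24 h (26.1%). Fits with the block in the next 2 sentences were added after seeing the data. Size factors, upper-quartile scaling, total counts and limma voom gave 3 (16.1% to 17.8%) and 4 (25.2% to 27.4%), and DESeq2 gave 4 (20.7%) and 5 (26.4%). Only the 4 libraries compared gave 3 at 24 h (0.888%), 0 at 48 h (0.0195%) and 4 at 48 h against 24 h (26.5%). Leaving out 1 library in turn from the blocked fit gave 0 to 3 members at 24 h (0% to 1.56%) and 0 to 25 at 48 h (0.0367% to 39.4%), with 17 without 48 h clone 31 (19.5%). At 48 h against 24 h it gave 0 to 29 (0% to 44.4%), with 10 without 48 h clone 31 (25.3%), and between the clones 2 to 15 (4.46% to 30.9%). There the members' median ranged from -0.77 to 0.14 at 24 h, with -0.57 without 24 h clone 30. At 48 h against 24 h it was -0.20 without 48 h clone 31, and without the block it ranged from -0.37 to 1.17. Adm, whose level differs between the clones, reversed without the block: leaving out 1 library gave -5.11 to 3.15 at 48 h (0.03 without 48 h clone 31) and -5.00 to 2.93 at 48 h against 24 h (0.14 without 48 h clone 31). Libraries held at least 24603816 read pairs, and counts were low for Adm in clone 31, P4ha2, Ankrd37, Pfkp and Car9. The 2 clones limit every test.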
